A study of Mus musculus with 2 samples.

Results

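Immunoglobulin constant genes and the joining chain gene were followed through the immune cells of B16 melanoma tumors. The 7 genes, Igkc, Ighm, Ighd, Igha, Ighg2b, Ighg2c and Jchain, were chosen by symbol from the 31253 features of the count tables, with no measured value in the rule. All cells with at least 200 detected genes and under 10% mitochondrial UMIs were used, and 465 of 5225 such cells in one library and 717 of 5576 in the other held at least 1 UMI of the 7 genes. A UMI, or unique molecular identifier, tags a captured RNA molecule.

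Wild-type mice had been immunized under the skin with irradiated, GM-CSF-producing B16 cells. After 12 days the opposite flank received B16 cells with a hairpin against Sdc1 (shSdc1) or with the control hairpin shRFP, and after another 16 days 6 tumors of each group were pooled, digested with collagenase, hyaluronidase and DNase, and sorted for live CD45+ cells. Each group was sequenced as 1 library with the 10x Genomics 3′ kit of version 3.1. The genotype label of the shSdc1 sample reads Sdc1 knock out (KO), but by its title and treatment the hairpin sat in the melanoma cells, and the mice of both groups were wild type. With 1 library of pooled tumors per group there was no test between groups, library and group cannot be told apart, and every interval in brackets is a 95% interval for counting error only. A surface sort for CD45 sets which B-lineage cells could enter, because antibody-secreting cells can carry less CD45 than B cells.

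An antibody is built from heavy and light chains, each with a variable and a constant part. Igkc encodes the constant part of the kappa light chain, whereas Ighm, Ighd, Ighg2b, Ighg2c and Igha encode those of the IgM, IgD, IgG2b, IgG2c and IgA heavy chains, and a B cell changes from IgM to another class by deleting the DNA between them. Resting B cells carry the chains on their surface in small amounts. Plasmablasts and plasma cells, the antibody-secreting cells, fill much of their messenger RNA with secreted chains, and Jchain encodes the small protein that links IgM into pentamers and IgA into dimers.

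The heavy chain genes lie side by side on the minus strand of mouse chromosome 12, and the end of the secreted coding sequence is where the classes that bind the joining chain differ from those that do not. In GENCODE M21 on GRCm38, Ighm spans chr12:113418558-113422730, Ighd chr12:113406604-113416324, Ighg2b chr12:113302965-113307933, Ighg2c chr12:113285325-113288932 and Igha chr12:113254830-113260236. Igkc lies on the plus strand at chr6:70726435-70726966 and Jchain on the minus strand at chr5:88519809-88527891. The last 60 coding bases of the 4 secreted heavy chain transcripts whose classes are named below, 5′ to 3′ and ending in the stop codon, were read from the GRCm38 genome, with the penultimate codon in capitals where it encodes cysteine, the tailpiece residue to which the joining chain bonds.
Ighm: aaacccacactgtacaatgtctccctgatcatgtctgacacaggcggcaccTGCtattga
Igha: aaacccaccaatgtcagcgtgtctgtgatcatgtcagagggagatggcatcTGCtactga
Ighg2b: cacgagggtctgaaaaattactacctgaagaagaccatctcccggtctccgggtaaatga
Ighg2c: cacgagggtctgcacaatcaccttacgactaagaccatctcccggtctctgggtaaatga
These stretches lie in the last exon of the secreted form, at chr12:113420867-113420926 for Ighm, chr12:113258768-113258827 for Igha, chr12:113306389-113306448 for Ighg2b and chr12:113287389-113287448 for Ighg2c. The Ighm and Igha ends carried the cysteine codon and were the same at 41 of 60 bases (68.3%), whereas the Ighg2b and Ighg2c ends had none. The Ighg2b and Ighg2c ends were the same at 49 of 60 bases (81.7%), and their membrane forms end in 60 of 60 equal bases. Of the runs of 50 bases in Ighg2c transcripts, 5.49% also occur in Ighg2b, so single UMIs of these genes are uncertain. Igkc overlaps the gene model Gm30211 on the same strand, which had 3 UMIs in shRFP and 6 in shSdc1.

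The kept cells held 4116399 UMIs in shRFP (median 662 per cell) and 4281577 in shSdc1 (median 601). The libraries shared 17 barcode sequences among kept cells, and these held 1 and 2 UMIs of the 7 genes. Sdc1, the gene targeted in the tumor cells, had 103 UMIs in shRFP and 85 in shSdc1, mostly in monocyte/macrophage-like cells. These host transcripts do not check the hairpin.

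Over all kept cells the antibody genes were more abundant in the shSdc1 library, but 14 cells held most of the UMIs. The 7 genes gave 3011 UMIs in shRFP (0.0731% of all UMIs) and 16141 in shSdc1 (0.377%). Igkc had 1686 UMIs in 176 shRFP cells, or 409.6 CPM (UMIs of the gene scaled to 1000000 UMIs), and 10075 UMIs in 239 shSdc1 cells, or 2353 CPM. The Igkc ratio of shSdc1 to shRFP was 5.75 [5.46 to 6.05]. In such sums more cells of a type and more RNA per cell cannot be told apart.

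Among the heavy chains Ighm had 1187 UMIs in shRFP (288 CPM) and 4485 in shSdc1 (1048 CPM), a ratio of 3.63 [3.41 to 3.88]. Ighd, which mature naive B cells transcribe together with Ighm, went the other way, with 22 UMIs in shRFP and 7 in shSdc1 and a ratio of 0.306 [0.110 to 0.741]. In cells with at least 500 genes the Ighd ratio was 0.769 [0.152 to 3.57]. Igha had no UMI in shRFP, which allows up to 0.729 CPM at a floor of 3 counts, and 427 UMIs in shSdc1, 137 times that floor. The interval of its ratio begins at 110.8. Ighg2b had 6 UMIs in shRFP and 208 in shSdc1, a ratio of 33.3 [15.1 to 91.9], whereas Ighg2c had 5 and 1.

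Jchain had 105 UMIs in 4 shRFP cells (25.5 CPM) and 938 UMIs in 16 shSdc1 cells (219 CPM), a ratio of 8.59 [7.01 to 10.6]. At 1.5-fold, 15.6% of the 10801 genes with at least 20 UMIs were higher in shSdc1 and 5.79% were lower. Igkc, Ighm and Jchain were past 1.5-fold upwards and Ighd downwards. Igha and Ighg2b reach 20 UMIs only through shSdc1, where they are high, and Ighd only through shRFP, where it is high. For this reason no count over the members is read against these shares. The median of all these genes was itself 0.14 higher in shSdc1 on the log2 scale, and TMM scaling brought it to -0.01. None of Igkc, Ighm, Jchain and Ighd changed its side of 1 with TMM scaling, although the share of higher genes among all genes past 1.5-fold went from 72.9% to 54.9%.

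**Figure D1:**
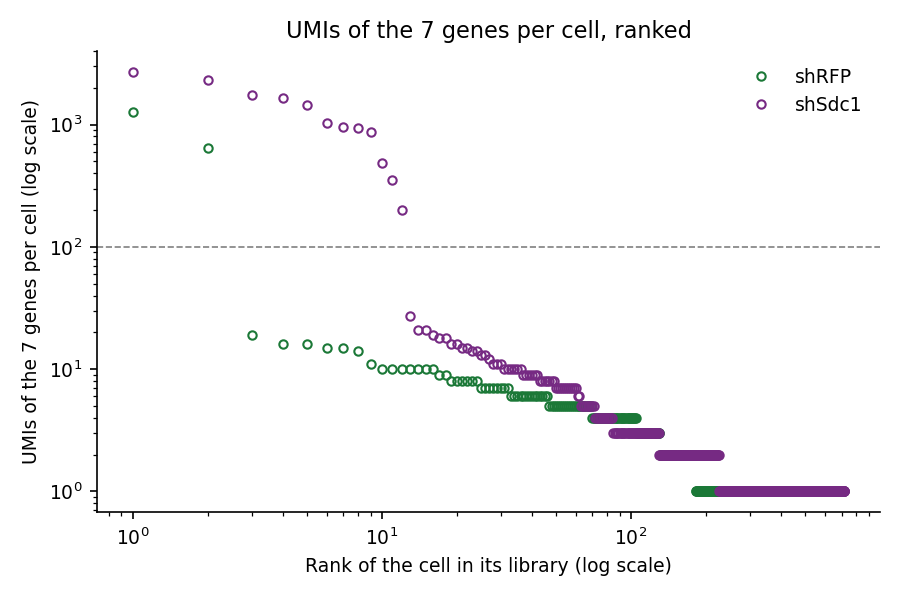
UMIs of the 7 genes in each kept cell with at least 1 of them (vertical axis, log scale) against the rank of the cell within its library (horizontal axis, log scale), with the line at 100 UMIs. In shRFP 2 cells and in shSdc1 12 cells stand above the line, and the next cells have 19 and 27 UMIs.

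The cells fell into 2 sets by their load of these genes. In shRFP the highest 2 cells held 1268 and 641 UMIs of the 7 genes, and the next cell held 19. In shSdc1 the highest 12 cells held 200 to 2704, with a median of 997, and the next cell held 27. Cells with 100 or more UMIs, a value set in this gap after it was seen, are called immunoglobulin-rich here. They were 2 of 5225 cells in shRFP (0.0383% [0.00464 to 0.138]) and 12 of 5576 in shSdc1 (0.215% [0.111 to 0.376]), a ratio of 5.62 [1.25 to 51.7] of shares of cells. The plot of UMIs per ranked cell shows the gap in both libraries.

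These few cells set the library totals. They held 63.4% of all UMIs of the 7 genes in shRFP and 91.0% in shSdc1, and 50% of the UMIs lay in 2 and 4 cells. For Igkc their share was 70.2% and 94.5%, for Ighm 52.4% and 80.1%, and for Jchain 98.1% and 99.5%. Of the shSdc1 UMIs of Igha 97.7% came from a single cell, and of those of Ighg2b 67.3% from another. Ighd had 0 UMIs in all 14 cells, and in shRFP they held 0 of 5 Ighg2c and 0 of 6 Ighg2b UMIs.

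**Figure D2:**
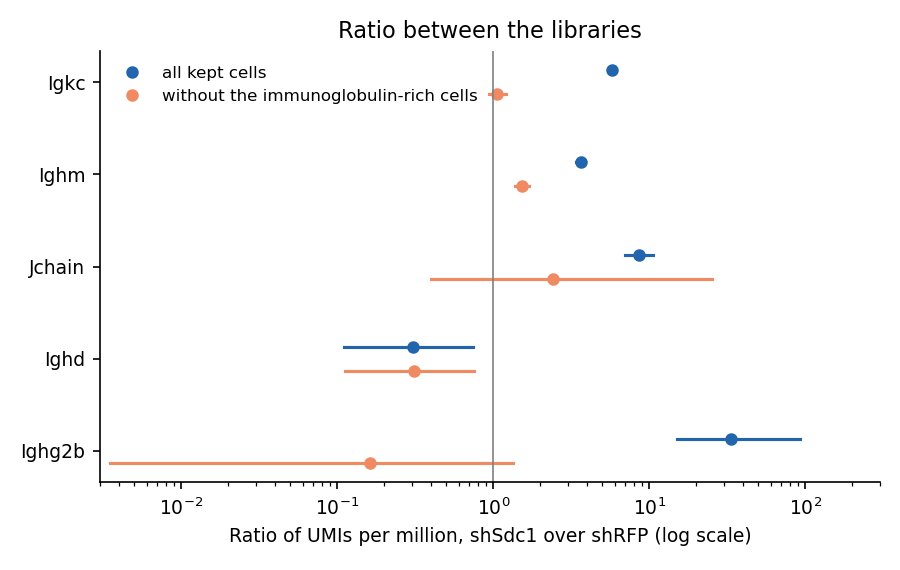
Ratio of CPM, shSdc1 over shRFP (log scale), with its 95% counting interval, for all kept cells and without the 14 immunoglobulin-rich cells. The Igkc point moves from 5.75 to 1.06, whereas Ighd stays near 0.306.

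Without the immunoglobulin-rich cells, a comparison added after the data were seen, the libraries were close in Igkc and still apart in Ighm. Igkc then had 502 UMIs in shRFP (122 CPM) and 551 in shSdc1 (130 CPM), a ratio of 1.06 [0.939 to 1.20]. Ighm had 565 and 891 UMIs, a ratio of 1.53 [1.37 to 1.70]. Jchain was left with 2 and 5 UMIs, Ighg2b with 6 and 1, and Igha with 0 and 5, all too few to set a level. Ighd kept a ratio of 0.308 [0.111 to 0.746].

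The 14 immunoglobulin-rich cells were described one by one. The highest shRFP cell held 824 Igkc, 389 Ighm and 55 Jchain UMIs, which made up 71.2% of its 1781 UMIs. The other shRFP cell held 360 Igkc, 233 Ighm and 48 Jchain UMIs, or 40.3% of 1592. Both were IgM cells with no UMI of another heavy chain.

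In shSdc1 the leading cell held 1730 Igkc, 838 Ighm and 136 Jchain UMIs, or 73.6% of 3674. The cell with most Jchain held 229 Jchain UMIs beside 1169 Igkc and 921 Ighm. Over the 12 cells the share of a cell's UMIs from the 7 genes ran from 9.15% to 73.6%, with a median of 62.5%. By the heavy chain with most UMIs, 9 of these 12 cells were IgM, 2 were IgG2b and 1 was IgA.

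The IgA cell held 869 Igkc, 417 Igha and 154 Jchain UMIs and no Ighm. One IgG2b cell held 659 Igkc, 140 Ighg2b and 64 Jchain UMIs, again with no Ighm. The other IgG2b cell held 275 Igkc and 67 Ighg2b UMIs with 3 Ighm, 1 Igha and 1 Ighg2c UMI. In 12 of the 14 cells a single heavy chain gene gave every heavy chain UMI, and in the exceptions the leading gene gave 93.1% and 94.7%.

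Jchain was present in 13 of the 14 cells. Per 100 heavy chain UMIs the cells held between 0 and 45.7 Jchain UMIs, with a median of 19.9. The IgG2b cell with 140 Ighg2b UMIs had the highest value, 45.7, although the secreted end of Ighg2b shown above has no tailpiece cysteine codon, and the IgA cell followed with 36.9. The cell without Jchain was the one with fewest UMIs of the 7 genes, 125 Igkc, 71 Ighm and 4 Igha.

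**Figure D3:**
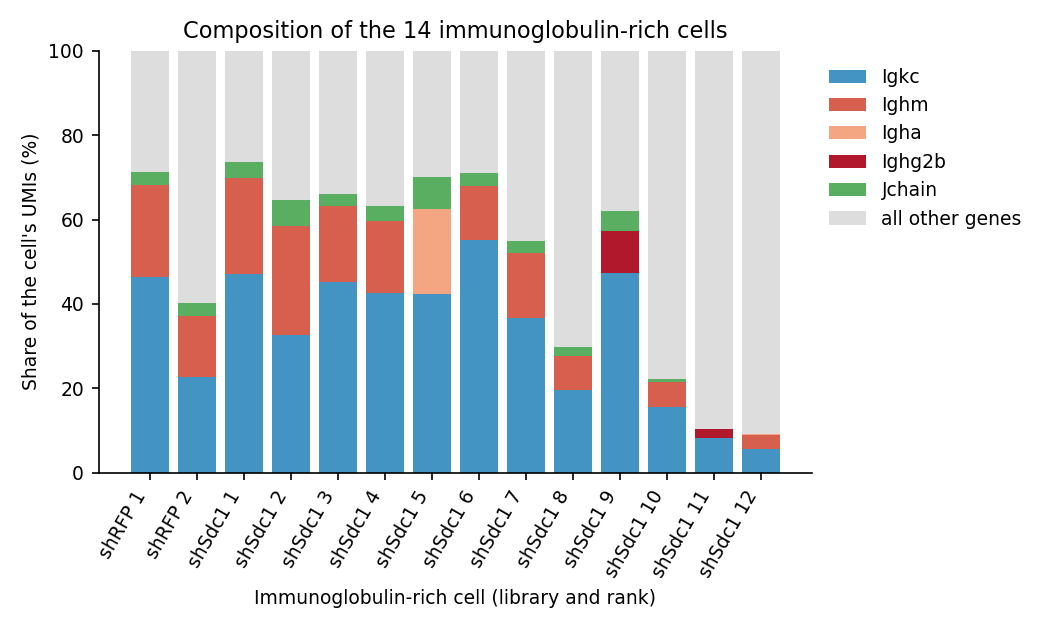
Share of each immunoglobulin-rich cell's UMIs (percent) from Igkc, Ighm, Igha, Ighg2b, Jchain and all other genes, with 2 shRFP and 12 shSdc1 cells in order of their UMIs of the 7 genes. The shSdc1 cell of rank 5 carries Igha, those of rank 9 and 11 carry Ighg2b, and the 11 others carry Ighm.

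The light chain was kappa in each of the 14 cells, with 0 to 9 UMIs of the lambda constant genes Iglc1 to Iglc4 against 125 to 1730 of Igkc. Variable genes gave few UMIs in these libraries, 4 in shRFP and 17 in shSdc1 over all kept cells. Neither immunoglobulin-rich shRFP cell had one. In shSdc1 6 of the 12 cells had any, led by Igkv1-117, Igkv9-124, Igkv1-135 and Ighv1-18 in 1 cell each and by Iglv1 in 2, and the highest count was 4 UMIs of Iglv1 in the IgA cell. The counts do not allow a clone to be read from any cell.

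Lists of genes other than antibody genes differed in summed level between the immunoglobulin-rich cells and B cells. B-like cells were a cluster made without any immunoglobulin gene or Jchain and led by Cd79a, Ms4a1, Ly6d, Ebf1 and Cd79b. It held 106 shRFP cells and 90 shSdc1 cells, 11 of the latter immunoglobulin-rich. Clustering therefore did not set most rich cells of shSdc1 apart from B cells. The secretory machinery list, 14 genes of protein folding and export in the endoplasmic reticulum, gave 244 UMIs per 10000 non-immunoglobulin UMIs [220 to 270] in the 12 rich cells of shSdc1, against 16.7 [13.3 to 20.8] in its other 79 B-like cells. In shRFP the values were 137 [83.6 to 211] in 2 cells and 25.2 [20.96 to 30.1] in 106.

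Of 427 genes with at least 20 UMIs in the shSdc1 comparison of rich with other B-like cells, 14.8% were at least 2-fold higher in the rich cells and 18.7% at least 2-fold lower. Most secretory genes reach 20 UMIs only through the rich cells, so no count over a list is read against these shares, and the levels of whole lists are given. Xbp1, the transcription factor of the secretory programme, had 42 UMIs in 12 of 12 rich cells and 2 UMIs in 79 B-like cells, a ratio of 65.7 [17.1 to 560] per non-immunoglobulin UMI. Txndc5, a disulfide isomerase of the endoplasmic reticulum, had 57 against 3 UMIs, a ratio of 59.4 [19.3 to 297]. Hsp90b1, the chaperone Grp94, had 87 against 15, a ratio of 18.1 [10.4 to 33.8]. Ratios were smaller for Hspa5, with 30 against 22 UMIs (4.27 [2.38 to 7.76]), and Sec11c, with 22 against 14 (4.92 [2.405 to 10.4]). Xbp1 and Txndc5 are among the genes that reach 20 UMIs only through the rich cells, so their ratios are a description. Of the 373 secretory UMIs 99 came from shSdc1 cell 10 (cells are numbered within a library by their UMIs of the 7 genes), and the list stood at 202 per 10000 without it.

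Regulators and receptors of plasma cells were sparse. The list of 7 had 36 UMIs in the rich cells of shSdc1, or 23.6 per 10000 [16.5 to 32.6], against 4.81 [3.05 to 7.22] in its other B-like cells. Prdm1, which encodes Blimp-1, had 4 UMIs in 4 rich cells, and Tnfrsf17, which encodes the plasma cell receptor BCMA, had 4 UMIs in 3. Tnfrsf13b and Eaf2 had 8 UMIs each, against 4 and 1 in other B-like cells. Not every gene of the list was higher. Pou2af1 had 4 UMIs against 14, a ratio of 0.894 [0.214 to 2.85] per non-immunoglobulin UMI. Irf4 had 3 against 3, a ratio of 3.13 [0.419 to 23.4]. Sdc1 itself, whose product CD138 is the usual surface marker of plasma cells, had 5 UMIs in 4 of the 12 rich shSdc1 cells and 0 in the 2 rich shRFP cells. B-like cells outside the rich set had 0 Sdc1 UMIs in both libraries.

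The B marker list was lower in the immunoglobulin-rich cells, but not every gene of it. All 13 genes together stood at 41.3 UMIs per 10000 [31.7 to 52.8] in the rich cells of shSdc1 and at 91.9 [83.5 to 101] in its other B-like cells. Ly6d went the other way, with 37 UMIs in the rich and 68 in the B-like cells and a ratio of 1.70 [1.11 to 2.58]. Ms4a1, which encodes CD20, had 0 UMIs in the rich cells and 55 in B-like cells. A floor of 3 counts would be 0.171 of the B-like level per non-immunoglobulin UMI, and the interval of the ratio reaches 0.217. Cd79a, the signalling partner of surface immunoglobulin, had 19 UMIs in 11 of 12 rich cells, at 0.461 [0.269 to 0.749] of the B-like level. The rich cells were deeper, with a median of 2402.5 UMIs against 496. The B-like cluster was formed with these markers, so their levels are given as a description.

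**Figure D4:**
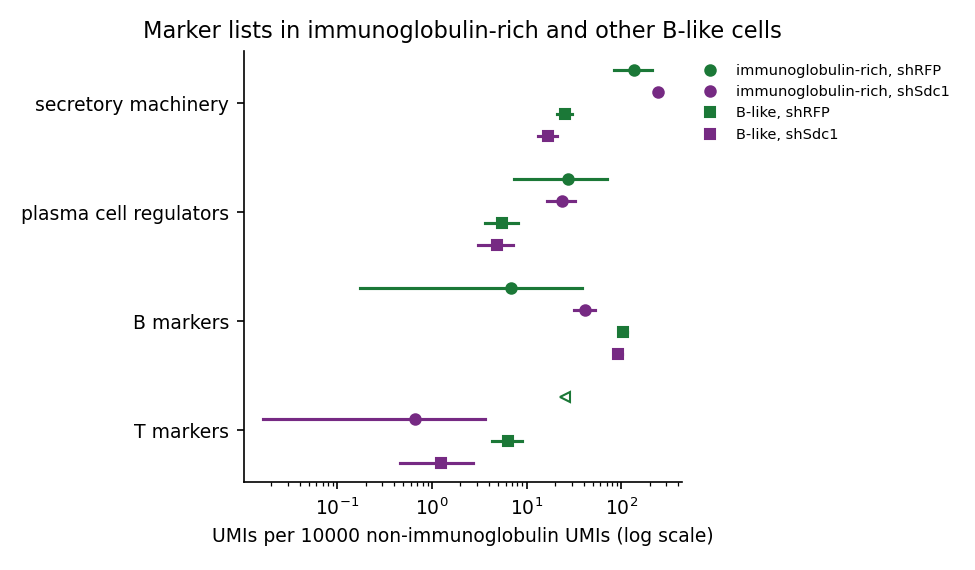
UMIs of 4 marker lists per 10000 non-immunoglobulin UMIs (log scale) with 95% counting intervals, in immunoglobulin-rich cells (circles) and other B-like cells (squares) of each library, with an open triangle at the upper limit where a list had no UMI. Secretory machinery stands at 244 and 137 in the rich cells against 16.7 and 25.2 in B-like cells, and the B marker list is lower in the rich cells. Of the 20 UMIs behind the shRFP value of 137, 15 lie in a single cell.

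Monocyte and macrophage markers were present in all 12 rich cells of shSdc1. The summed level of the list was 129 per 10000 non-immunoglobulin UMIs against 39.1 in other B-like cells, and in shRFP 0 against 30.5. It gave 197 UMIs in the 12 shSdc1 cells, of which 89 were in shSdc1 cell 8, a cell of a monocyte/macrophage-like cluster. The other 11 held 1 to 17 each and stood at 82.6 per 10000, still above B-like cells. Of the 14 genes of the list, 5 were measured in the comparison of the 12 cells together with other B-like cells. C1qa, C1qb, Ly6c2 and Apoe were at least 2-fold higher in the 12 cells, and none was 2-fold lower. Of all genes measured there 14.8% were at least 2-fold higher and 18.7% at least 2-fold lower. A gene can reach the minimum count through the rich cells alone, so the count is not read against these shares. Which genes give the level in the other 11 cells was not tested. In shRFP cell 2, which lay in the migratory DC-like cluster, the migratory DC list had 11 UMIs, whereas shRFP cell 1, in a monocyte/macrophage-like cluster, had 0 UMIs of the monocyte and macrophage list. T cell markers gave 1 UMI in all 14 cells. None of the 14 was among the 218 and 249 cells with the highest doublet scores. What other cells add to the counts of these barcodes was not tested.

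Antibody-secreting cells were also called without any antibody gene, from at least 2 of Mzb1, Derl3, Tnfrsf17, Prdm1, Eaf2, Fkbp11 and Xbp1, with Mzb1, Tnfrsf17 or Derl3 among them and no Siglech, a marker of plasmacytoid dendritic cells. This gave 5 cells in shRFP and 11 in shSdc1. Of these, 1 and 9 were immunoglobulin-rich. The 11 shSdc1 cells held 0 to 2704 UMIs of the 7 genes, with a median of 937, whereas the 82 B-like cells outside the call held a median of 7 and, with 3 rich cells among them, up to 1030. In shRFP the 5 cells held a median of 7, and the 104 B-like cells outside the call a median of 4.

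The marker call and the antibody counts did not pick the same cells throughout. Rich cells missed by the markers were 1 in shRFP and 3 in shSdc1, with 0 to 2 of the marker genes each. Of the cells called without being rich, the 2 in shSdc1 had 0 UMIs of the 7 genes, and the 4 in shRFP had 0 to 15. Another 6 cells in each library lay just outside the call, with Mzb1, Tnfrsf17 or Derl3 as their only marker gene and no Siglech. At 3 markers the call gave 2 and 7 cells, of which 1 and 7 were rich.

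B-like cells outside the rich set carried few antibody UMIs each. Igkc ranged from 0 to 14 UMIs per cell in shRFP (median 3, n = 106 cells) and from 0 to 18 in shSdc1 (median 4, n = 79). Ighm ranged from 0 to 11 in both, with a median of 1 and 3. The 7 genes made up a median of 1.13% and 1.29% of a cell's UMIs. Median depth was 374 UMIs per cell in shRFP and 496 in shSdc1.

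As summed levels, Igkc stood at 6550 CPM [5857 to 7304] in the shRFP B-like cells and at 7392 [6647 to 8197] in those of shSdc1, a ratio of 1.13 [0.968 to 1.32]. Ighm stood at 3599 and 5498 CPM, a ratio of 1.53 [1.26 to 1.86]. Ighd had 16 UMIs in 14 shRFP cells and 4 UMIs in 4 shSdc1 cells, a ratio of 0.255 [0.0619 to 0.789]. Ighd was 8.25% [4.79 to 13.05] of the summed Ighm and Ighd UMIs in shRFP and 1.48% [0.404 to 3.74] in shSdc1.

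Among 697 genes measured in these B-like cells 12.5% were 1.5-fold higher in shSdc1 and 18.7% lower. Of the 3 members measured there Ighm was past 1.5-fold upwards and Ighd downwards. Ighd, with 16 and 4 UMIs, reaches the minimum of 20 UMIs only through shRFP, where it is high. No count over the members is therefore read against these shares. With the rich cells left in, 9.56% of 826 genes were higher and 34.3% lower, and the share of higher genes among those past 1.5-fold was 21.8%, against 49.4% with TMM and 75.1% with median-of-ratios scaling. Igkc then had a ratio of 18.8 [16.8 to 21.02] and Ighm of 13.3 [11.4 to 15.5] in the B-like cluster, which in shRFP holds neither rich cell.

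Heavy chains other than Ighm and Ighd led none of the B-like cells outside the rich set. With at least 2 heavy chain UMIs required, 39 shRFP cells were led by Ighm, 2 by Ighd and none by Igha, Ighg2b or Ighg2c, and in shSdc1 57 were led by Ighm and none by another heavy chain. Another 7 and 1 cells had equal counts of 2 genes, and 58 and 21 had too few UMIs. Ighg2c had 5 UMIs in 2 shRFP B-like cells. Ighg1, Ighg3 and Ighe had 0 UMIs over all kept cells of both libraries, which allows up to 0.729 CPM in shRFP and 0.701 in shSdc1.

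Lambda light chains were measured only in the constant genes Iglc1 to Iglc4. In B-like cells outside the rich set lambda made up 31.8% [27.6 to 36.2] of light chain constant UMIs in shRFP and 31.0% [27.0 to 35.1] in shSdc1. Of the cells with at least 2 light chain UMIs, 71 were led by kappa and 15 by lambda in shRFP, and 57 and 14 in shSdc1.

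In B-like cells outside the rich set none of the 9 B markers with at least 20 UMIs was past 1.5-fold either way, with a median of -0.12 on the log2 scale against 0.01 for all genes measured. The shares of all genes there were 12.5% higher and 18.7% lower. Over all kept cells 5 of 12 B markers were past 1.5-fold, Cd22 and Blk upwards and Fcmr, Ebf1 and Cr2 downwards. The shares of all genes there were 15.6% higher and 5.79% lower. Cr2, with 17 UMIs in shRFP and 3 in shSdc1, and Blk, with 7 and 14, reach 20 UMIs only through the library where they are high. The count is therefore not read against these shares. Cd22 had 28 and 50 UMIs over all kept cells but 10 and 8 in B-like cells outside the rich set. In the whole B-like cluster, rich cells included, 7 of 9 B markers were lower, with a median of -0.67 against -0.33 for all genes, of which 34.3% were lower. Outside the rich set, only Blnk, an adaptor, was past 1.5-fold among 6 measured genes of receptor signalling in B-like cells. It had 15 UMIs in shRFP and 6 in shSdc1, a ratio of 0.407 with an interval that spans 1 [0.129 to 1.11].

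Outside B cells the 2 most abundant genes were spread unevenly over the cell classes. In cells that were neither B-like nor rich, Igkc had 178 UMIs in 86 of 5117 shRFP cells and 192 UMIs in 161 of 5485 shSdc1 cells. Ighm had 387 UMIs in 300 shRFP cells and 624 UMIs in 489 shSdc1 cells. Igha had 0 and 5 UMIs there, Ighg2b 4 and 1, Ighd 6 and 3, and Jchain 1 and 5.

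Among the members with over 100 UMIs in a library, Ighm had the largest share of its UMIs outside. Ighd, with 6 of 22 and 3 of 7 UMIs outside, and Ighg2b in shRFP, with 4 of 6, were too rare to place. Of all shSdc1 UMIs of a gene, those outside B-like and rich cells were 13.9% for Ighm, 1.91% for Igkc, 1.17% for Igha, 0.533% for Jchain and 0.481% for Ighg2b. In shRFP they were 32.6% for Ighm and 10.6% for Igkc. Most of the positive cells outside held 1 UMI, 80.7% and 78.7% of those with Ighm in shRFP and shSdc1 and 60.5% and 87.6% of those with Igkc.

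**Figure D5:**
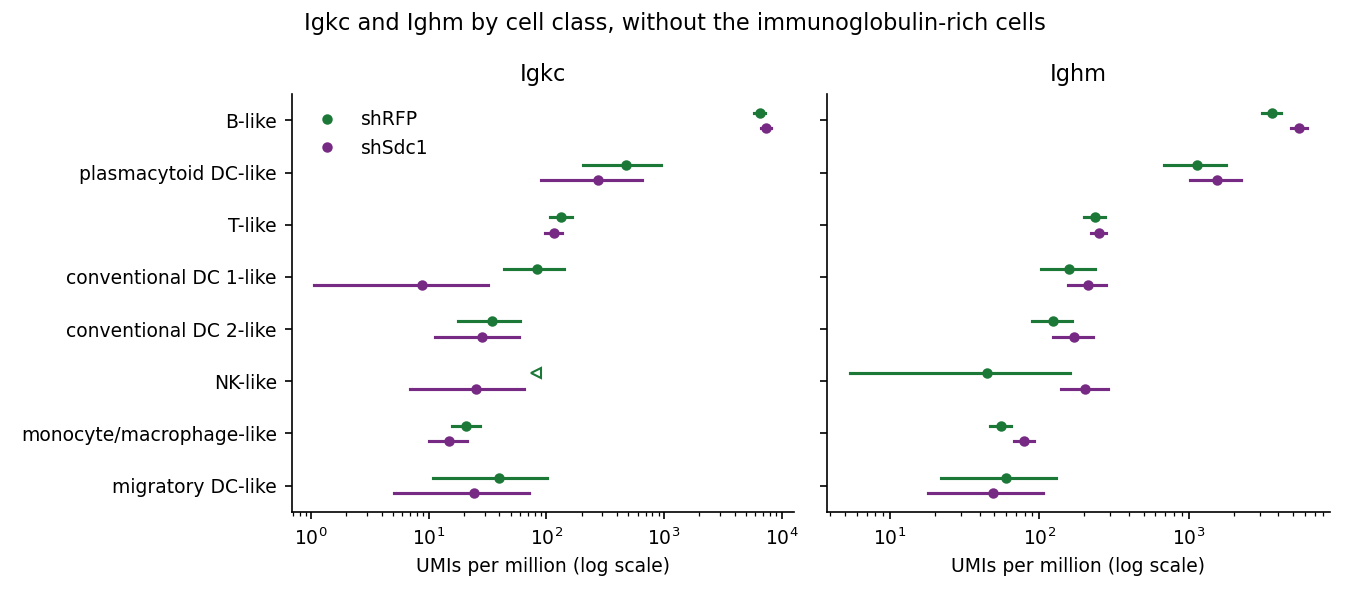
Summed Igkc (left) and Ighm (right) CPM (log scale) with exact 95% Poisson intervals in 8 cell classes of each library, without the immunoglobulin-rich cells, with an open triangle at the upper limit where no UMI was found. B-like cells are highest, and plasmacytoid DC-like cells are next for Ighm at 1132 and 1551.

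Plasmacytoid DC-like cells had the highest Ighm level after B-like cells, 1132 CPM [681 to 1767] in 28 shRFP cells and 1551 [1030 to 2241] in 34 shSdc1 cells. T-like cells followed with 236 CPM [199 to 278] and 250 [222 to 280]. Monocyte/macrophage-like cells had 55.4 CPM [46.8 to 65.2] and 79.5 [67.8 to 92.6]. These 3 classes stood in this order in both libraries, with intervals that do not overlap. Conventional DC 1-like cells, at 159 CPM [103 to 235] and 212 [156 to 281], did not differ from T-like cells beyond counting error.

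The share of cells with an Ighm UMI was compared at equal depth, after every cell had been thinned to 300 UMIs and shallower cells were left out. In B-like cells it was 56.9% in shRFP (72 of 106 cells were deep enough) and 72.6% in shSdc1 (73 of 79). In plasmacytoid DC-like cells it was 29.6% (27 of 28) and 35.5% (31 of 34). In T-like cells it was 7.13% (884 of 1119) and 7.26% (1528 of 1843), and in monocyte/macrophage-like cells 1.67% (2999 of 3093) and 2.56% (2381 of 2541). Unthinned, the T-like shares were 10.7% and 11.9% at a median depth of 399 and 449 UMIs, and the monocyte/macrophage-like shares 3.82% and 5.43% at 721 and 666.

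Within T-like cells Ighm differed between clusters in both libraries, and Igkc only in shSdc1. The cluster led by Tnfrsf4, Foxp3 and Ctla4, genes of regulatory T cells, had 326 CPM of Ighm [258 to 407] in shRFP and 450.2 [396 to 510] in shSdc1. The cluster led by Ifng, Cd8a and Gzmk, genes of cytotoxic T cells, had 67.3 [35.9 to 115] and 43.1 [26.3 to 66.5]. The cluster led by Lef1 and Tcf7, genes of naive T cells, had 298 [223 to 389] and 172 [114 to 249]. For Igkc the levels were 87.7 CPM [54.3 to 134] and 136 [107 to 171] in the Foxp3-led cluster and 181 [126 to 252] and 123 [92.9 to 159] in the Cd8a-led cluster, with overlapping intervals in each library. In the Lef1-led cluster Igkc stood at 146 CPM [95.4 to 214] in shRFP and at 30.7 [9.98 to 71.7] in shSdc1, below both other clusters in shSdc1. This shSdc1 value rests on 5 UMIs in 5 of 404 cells.

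The balance of the 2 genes differed between classes within a library. Ighm was 34.4% [32.2 to 36.7] of the summed Igkc and Ighm UMIs in the rich cells of shRFP and 27.4% [26.6 to 28.2] in those of shSdc1. It was 35.5% [31.3 to 39.8] and 42.7% [38.7 to 46.6] in B-like cells, 63.7% [57.1 to 70.0] and 68.3% [63.7 to 72.7] in T-like cells, and 72.6% [65.9 to 78.7] and 84.2% [78.3 to 89.0] in monocyte/macrophage-like cells. In the Cd8a-led cluster it was 27.1% [15.3 to 41.8] and 26.0% [16.6 to 37.2], overlapping the interval of the rich cells in each library. In the Foxp3-led cluster it was 78.8% [69.4 to 86.4] and 76.8% [71.8 to 81.3], overlapping that of the monocyte/macrophage-like cells. The intervals of T-like and B-like cells did not overlap, so the 2 genes did not keep 1 ratio in every class. The part of RNA from outside the cells in these counts was not tested.

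Cells with any UMI of a B or antibody-secreting marker gave part of the counts outside, mainly for Igkc in shRFP. When those cells were left out, the share of T-like cells with Igkc went from 3.49% to 2.36% in shRFP and from 5.75% to 5.23% in shSdc1, all T-like cells counted. Outside B-like and rich cells, 22 shRFP cells held 3 or more Igkc UMIs, which was 57.3% of the Igkc UMIs there, and 15 of these 22 cells had a B marker UMI. In shSdc1 6 cells did so, with 12.0% of the UMIs.

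Between the libraries, the summed level outside B cells was close for Igkc and higher in shSdc1 for Ighm. Over all cells that were neither B-like nor rich the Igkc ratio was 1.04 [0.846 to 1.29] and the Ighm ratio 1.56 [1.37 to 1.77]. The share of these cells with Igkc was 1.68% [1.35 to 2.07] in shRFP and 2.94% [2.50 to 3.42] in shSdc1, and 1.06% [0.780 to 1.42] and 2.68% [2.24 to 3.18] without cells with a marker UMI. In single classes the summed Igkc level could be lower in shSdc1, with a ratio of 0.106 [0.0117 to 0.470] in conventional DC 1-like cells and 0.211 [0.0632 to 0.557] in the Lef1-led T cluster. These UMIs lay in few cells, and the intervals of the shares of cells overlapped. Conventional DC 1-like cells with Igkc were 3 of 143 in shRFP (2.10% [0.435 to 6.01]) and 2 of 177 in shSdc1 (1.13% [0.137 to 4.02]). Lef1-led cells with Igkc were 9 of 457 (1.97% [0.904 to 3.71]) and 5 of 404 (1.24% [0.403 to 2.86]). Within T-like cells the Ighm ratio was 1.06 [0.866 to 1.30], and within monocyte/macrophage-like cells it was 1.43 [1.14 to 1.80]. Both classes lie in different clusters in the libraries, and the clusters did not move together. The Foxp3-led cluster held 418 shRFP and 850 shSdc1 cells, with an Ighm ratio of 1.38 [1.07 to 1.81], and the Lef1-led cluster 457 and 404, with a ratio of 0.579 [0.352 to 0.931]. Among monocyte/macrophage-like cells the Ccl8-led cluster held 646 and 1387 cells, with a ratio of 1.02 [0.750 to 1.39], and the Chil3-led cluster 822 and 128, with 2.05 [0.949 to 4.09]. The Gdf15-led cluster held 253 and 260, with 0.299 [0.0711 to 0.969]. T-like cells, in which Ighm is higher than in monocyte/macrophage-like cells, were 1119 of the shRFP and 1843 of the shSdc1 cells. What these shifts in classes and clusters add to the overall Ighm ratio was not tested.

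The genes whose pattern over 34 sums of cells by cluster and library was most like Igkc, Ighm or Jchain were taken from 9290 genes, and Cd79a was among the first 5 for each. For Igkc they were Cd38 (Pearson r = 0.80 of log2(CPM + 1)), Cd79a (0.72), Tmed8 (0.69), Ptbp2 (0.66) and Saal1 (0.63). For Ighm they were Spib (0.68), Dnajc7 (0.65), Cd79a (0.65), Glcci1 (0.63) and Cnp (0.63), and for Jchain Bank1 (0.56), Cd79a (0.54), Ebf1 (0.53), Cacna1s (0.52) and Gga2 (0.50). The points share libraries and depth, and these genes had 57 to 836 UMIs in both libraries together, so the values only describe these sums.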

How the data were processed

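Per the file headers the deposited tables came from Cell Ranger 6.1.1 and hold unnormalized UMI counts, and the build is mm10 per the submitters' processing notes. The gene annotation behind them is not given in these sources. The 7 genes and all lists were chosen with earlier results of these data known, and the genes named are the 7 genes, genes of the counted lists and, for likeness, the first 5 by Pearson r among genes with at least 50 UMIs.

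Barcodes with at least 200 genes and under 10% mitochondrial UMIs were kept, 5225 of 5786 (shRFP) and 5576 of 5902 (shSdc1). Scrublet's automatic threshold marked 1 and 0 of them and had not worked, so doublets were kept, and removed only as an alternative. Cells were clustered in scanpy 1.11.5 without immunoglobulin, Jchain, mitochondrial, ribosomal and T cell receptor variable genes (2000 variable genes, 30 components, 15 neighbours, Leiden resolution 1), and clusters were named from marker lists. All class names rest on these rebuilt clusters.

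Counts were summed per library and class. Intervals are exact Poisson (CPM), conditional binomial (ratios) and Clopper-Pearson (shares) at 95%. UMIs of 1 library are no replicates. For 2-fold changes in simulated counts of the libraries, 94% of 100 ratio intervals held the true value. These counts were drawn from the Poisson model that the intervals assume. The simulation therefore cannot show how the intervals hold where a few cells carry most UMIs of a gene. TMM factors came from edgeR 4.0.16. Sequences and positions came from GENCODE M21, which matched 7 of 7 genes by identifier. Results of some gene lists are not reported here.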

Additional observations from a re-analysis of the deposited data

How the results depend on the processing

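Ratios are shSdc1 over shRFP and have no replicates behind them. Without the immunoglobulin-rich cells (chosen after seeing the data), the Ighg2b ratio over all kept cells turned from 33.3 to 0.161, on 6 and 1 UMIs, Igkc fell to 1.06, Ighm to 1.53 and Jchain to 2.42, and in B-like cells Igkc fell to 1.13 and Ighm to 1.53. Without the leading barcode of each library the ratios were 9.31 (Igkc), 4.40 (Ighm) and 15.4 (Jchain) over all cells and 16.0 and 10.7 (Igkc and Ighm) in B-like cells. Without the leading 5 they were 8.21, 3.18 and 119.97, and 8.67 and 4.59. Such removals are unequal, because shRFP has 2 immunoglobulin-rich cells and shSdc1 has 12. The leading 5 barcodes include every rich cell of shRFP but only part of those of shSdc1. What this adds to the ratios was not tested.

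With at least 500 genes per barcode Igkc was 10.2, Ighm 5.58 and Ighd 0.769 over all cells, and 347.9 and 48.99 in B-like cells, a class then left with few shRFP cells and a median of 0 UMIs of the 7 genes, in which Ighd gave no value. There were then 1 and 7 immunoglobulin-rich cells, and the share of UMIs in 5 cells was 69.5% and 86.8%. With every deposited barcode Igkc was 5.18 and the shRFP share 59.1%, and with doublets removed that share was 66.8%. TMM gave 5.19 and 3.28 over all cells and 23.5 and 16.6 in B-like cells, and median-of-ratios factors 5.23 and 3.31, and 28.6 and 20.3. Library sizes without immunoglobulin gave 22.9 and 16.3 in B-like cells, and cells with 2 or more B markers gave 17.8 for Ighm.

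At 3 markers 2 and 7 antibody-secreting cells were called, and at 3 heavy chain UMIs 25 shRFP B-like cells were led by Ighm. Outside B-like cells the share with Igkc was 2.40% and 3.73% at 500 genes, 0.926% and 1.62% thinned to 300 UMIs, and 1.06% in shRFP without marker-positive cells. With Ighm it was 7.71% and 11.8% at 500 genes, and 2.97% and 4.67% thinned.

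Over all cells 1685 genes were past 1.5-fold higher and 625 lower. With no minimum beyond 1 UMI these were 2681 and 1268, with at least 100 UMIs 729 and 339, and with TMM 941 were lower. In B-like cells 79 and 283 became 903 and 2856, 9 and 14, and with TMM 153 and 157, and 130 were lower without the rich cells. Another 49 such comparisons kept their value or count within the limits used. No paired analysis was possible because each group has 1 library.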

Other observations

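Beside Ighd, 2 other genes of mature B cells had fewer UMIs in shSdc1 in the B-like cells outside the immunoglobulin-rich set, both chosen after their values were seen. Fcer2a, which encodes the low-affinity IgE receptor CD23, had 12 UMIs in 11 shRFP cells and 0 in 79 shSdc1 cells. Cr2, which encodes complement receptor CD21, had 10 UMIs in 7 shRFP cells and 2 in 2 shSdc1 cells, a ratio of 0.204 [0.0217 to 0.956]. Ms4a1 had 56 and 55 UMIs in the same cells.

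The barcodes below the limits on genes or mitochondrial UMIs held antibody UMIs too, more in shRFP. There 561 barcodes held 212 Igkc, 81 Ighm and 14 Ighd UMIs, and 13.4% [10.7 to 16.5] of them had an Igkc UMI. In shSdc1 326 barcodes held 29 Igkc, 22 Ighm and 2 Ighd UMIs, and 4.91% [2.83 to 7.85] had Igkc. At least 2 B markers were found in 62 and 7 of these barcodes, against 115 and 80 of the kept cells. None held Jchain, Igha, Ighg2b or Ighg2c UMIs, and the highest count of the 7 genes was 12 in shRFP and 7 in shSdc1.

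Antibody-secreting cells called by markers in shRFP without being immunoglobulin-rich numbered 4, and their heavy chains were singled out after their values were seen. They held all 5 Ighg2c UMIs of the library in 2 cells, beside 9 Ighm UMIs in 1 cell and 2 Ighg2b UMIs in 1 cell. None of them held Jchain.

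Receptors for antibodies were described over all kept cells. Of 8 measured receptor genes Fcgr4 was past 1.5-fold higher in shSdc1 (285 and 544 UMIs), and Fcgr2b, the inhibitory Fc gamma receptor, was past 1.5-fold lower (1405 and 862 UMIs), as was Fcmr, the IgM receptor (34 and 21 UMIs). Of all genes measured 15.6% were past 1.5-fold higher and 5.79% lower. Pigr, which carries polymeric IgA and IgM across epithelia, had 0 and 1 UMI.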
